A study of Mus musculus with 12 samples.

Results

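The 10 genes described here were 5 MAPK phosphatases (Dusp1, Dusp4, Dusp5, Dusp6 and Dusp10), the transcription factor Egr1, the immediate early response genes Ier2, Ier3 and Ier5, and Myc. They were taken by symbol, and all 10 were found among the 15803 transcripts with a read in at least 1 of the 12 libraries, with 1 transcript listed for each gene. Ribosome footprints and RNA were sequenced in KPC cells, a mouse pancreatic ductal adenocarcinoma line from tumours that carry Trp53 R172H, switched on by a Cre under the Pdx1 promoter, which is active in pancreatic progenitors. The comparison addresses how gene expression and translation in these cells differ after cisplatin (Cis), a platinum drug that crosslinks DNA. The PBS group had no drug and its time in PBS, 6 or 21 h, is not labelled, and the other groups had 20 μM Cis for 6 h or for 21 h. Each group had 2 libraries per assay, numbered as replicates 1 and 2, and the Trp53 allele was shared by all of them. Nothing in the labels says that replicates came from separate cultures, so the p-values measure only the spread between these samples, which may be technical.

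MAP kinases such as ERK, JNK and p38 are activated by phosphorylation, and dual-specificity phosphatases of the Dusp family remove those phosphates. Several of these phosphatases are themselves induced by MAP kinase signalling, which makes them feedback inhibitors of the pathway that induces them. Immediate early genes such as Egr1, the Ier genes and Myc are transcribed rapidly after growth factors or stress without new protein synthesis, their RNAs are short-lived, and ERK signalling is a known input to them in pancreatic cancer cells.

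Values are given as RPKM, which scales reads to library depth and to length, here the length of the coding sequence for a footprint value and of the whole transcript for an RNA value. Footprint libraries held 3375480 to 5204127 reads, and RNA libraries held 862476 to 1341584 reads once Lars2, Tmem38b and Mettl26, which took 51.8% to 56.6% of them, were left out. The cells, from a ductal adenocarcinoma line, were checked against markers of cell types. Krt8, Krt18 and Krt19 were abundant in all 6 footprint libraries, whereas Epcam was at 0.287 to 1.83 RPKM and Muc1 at 0.287 to 0.711. Krt8 was at 4819 and 4679 footprint RPKM in PBS, 4949 and 4876 at 6 h and 3214 and 3261 at 21 h. Krt19 was at 3082 and 2683 in PBS, 2554 and 2621 at 6 h and 1716 and 1608 at 21 h, and Krt18 was at 1570 to 1856 in all 6. Krt7 was at 20.5 and 21.9 in PBS, 16.5 and 20.3 at 6 h and 10.1 and 9.19 at 21 h. Sox9 was at 13.0 and 11.1 in PBS, 15.6 and 14.6 at 6 h and 30.9 and 22.8 at 21 h. Cdh1 was at 138 and 147 in PBS, 119 and 109 at 6 h and 88.3 and 102 at 21 h. Krt7, Krt8, Krt19 and Cdh1 were thus lower, and Sox9 higher, in both footprint libraries of 21 h than in both of PBS, and Krt18, Epcam and Muc1 overlapped. In RNA, Krt8, Krt19, Cdh1 and Muc1 were lower and Sox9 higher in both libraries of 21 h, Krt18 was higher (544 and 534 against 426 and 421 in PBS), and Krt7 and Epcam overlapped. The 8 epithelial and ductal markers summed to 9795 and 9113 footprint RPKM in PBS, 9372 and 9313 at 6 h and 6728 and 6861 at 21 h. The 4 macrophage and leukocyte markers summed to 1.63 and 2.35 footprint RPKM in PBS, 2.31 and 1.73 at 6 h and 6.14 and 3.12 at 21 h. Most of that sum was Cd68, while Ptprc was at most 0.229 and Adgre1 was at 0 in 5 of the 6 footprint libraries. Endothelial markers summed to at most 0.666 footprint RPKM and fibroblast markers to at most 4.09. Of the acinar markers, Cpa1, Ptf1a and Amy2b were not listed. Cela1 was at 1.69 and 3.23 footprint RPKM in PBS, 2.67 and 3.34 at 6 h and 6.12 and 6.10 at 21 h, and its RNA in PBS and at 21 h overlapped. The part of these marker levels in the differences described here was not tested.

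Dusp1, a nuclear phosphatase that acts on p38, JNK and ERK (ENSMUSG00000024190), had 38.9 and 45.6 footprint RPKM in the 2 PBS libraries, 92.9 and 85.0 at 6 h and 431 and 449 at 21 h. Its RNA was at 6.53 and 11.1 RPKM in PBS, 15.4 and 21.5 at 6 h and 122 and 113 at 21 h. In both assays the 3 groups were separate from each other, lowest in PBS and highest at 21 h. In these bulk samples a change in the share of cells that express a gene and a change per cell cannot be told apart. Differences were tested with limma on log2(scaled RPKM + 0.5), two-sided, with Benjamini-Hochberg (BH) adjustment over all transcripts that passed a mean of 1 RPKM, and a transcript was called at an adjusted p under 0.05. At 21 h against PBS, Dusp1 footprints rose by 3.33 ± 0.11 on the log2 scale (SE, n = 2 per group, limma, BH-adjusted p = 1.11e-06), which was position 7 from the top of 10383 transcripts on this scale. Its RNA rose by 3.62 ± 0.23 (limma, BH-adjusted p = 2.95e-05). Against 6 h, the 21 h values were higher by 2.28 ± 0.11 in footprints and 2.50 ± 0.23 in RNA (limma, BH-adjusted p = 1.9e-05 and 0.000273). At 6 h against PBS, footprints rose by 1.05 ± 0.11 (limma, BH-adjusted p = 0.00625). That call was lost without replicate 1 of the 6 h footprints (adjusted p = 0.0644), without replicate 2 (0.068) and in limma without a trend (0.0701), with limma adjusted p from 1.8e-07 to 0.0701 over all alternatives. The RNA difference at 6 h was 1.12 ± 0.23 and missed the threshold (limma, BH-adjusted p = 0.209), which it passed with limma's voom on the recovered reads (adjusted p = 0.000225, in a range of 0.000225 to 0.58 over the alternatives).

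Dusp6, a cytoplasmic phosphatase selective for ERK (ENSMUSG00000019960), had 74.5 and 64.2 footprint RPKM in PBS, 86.5 and 86.1 at 6 h and 222 and 252 at 21 h. Dusp6 RNA was at 18.2 and 13.6 RPKM in PBS, 16.0 and 19.8 at 6 h and 33.5 and 36.6 at 21 h. The 21 h libraries were the highest in both assays, and the PBS and 6 h groups overlapped in RNA but not in footprints. At 21 h footprints rose by 1.73 ± 0.10 and RNA by 1.05 ± 0.17 on the log2 scale (SE, limma, BH-adjusted p = 1.58e-05 and 0.00266). Against 6 h the rises were 1.43 ± 0.10 and 0.80 ± 0.17 (limma, BH-adjusted p = 8.39e-05 and 0.0141). The RNA call against 6 h was lost without replicate 1 at 6 h (limma adjusted p = 0.0791), replicate 1 at 21 h (0.0516) or replicate 2 at 21 h (0.0719), and in limma without a trend (0.065), with a range from 3.22e-06 to 0.0791 over the alternatives.

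Dusp4, a nuclear phosphatase of the same family that acts on ERK and JNK (ENSMUSG00000031530), had 19.2 and 17.2 footprint RPKM in PBS, 22.7 and 24.6 at 6 h and 46.1 and 40.3 at 21 h. The RNA of Dusp4 was at 9.19 and 9.18 RPKM in PBS, 10.3 and 9.64 at 6 h and 22.4 and 20.8 at 21 h. Both assays placed the 2 libraries of 21 h above all others. Footprints rose by 1.19 ± 0.13 and RNA by 1.11 ± 0.15 at 21 h against PBS (SE on the log2 scale, limma, BH-adjusted p = 0.000274 and 0.00122). The rises against 6 h were 0.83 ± 0.13 and 0.93 ± 0.15 (limma, BH-adjusted p = 0.00242 and 0.0046).

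Dusp5, a nuclear phosphatase selective for ERK (ENSMUSG00000034765), had 17.0 and 18.8 footprint RPKM in PBS, 23.3 and 29.6 at 6 h and 23.8 and 23.4 at 21 h. Dusp5 RNA was at 11.0 and 7.94 RPKM in PBS, 9.98 and 10.7 at 6 h and 14.2 and 13.7 at 21 h. The footprint values of 6 h and 21 h overlapped, and both lay above PBS, whereas the RNA of PBS and 6 h overlapped and 21 h was highest. Neither difference at 21 h against PBS passed, at 0.35 ± 0.15 in footprints and 0.47 ± 0.19 in RNA (SE on the log2 scale, limma, BH-adjusted p = 0.099 and 0.0998). With limma's voom on the recovered reads the RNA difference did pass (adjusted p = 0.0471, with a range of 0.0471 to 0.49 over the alternatives), whereas it was 0.23 without PBS replicate 2 and 0.71 without PBS replicate 1. Against 6 h the differences were -0.17 ± 0.15 and 0.27 ± 0.19 (limma, BH-adjusted p = 0.424 and 0.368), and the footprint one was -0.34 without replicate 1 at 6 h and -0.00427 without replicate 2.

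Dusp10, which acts on p38 and JNK (ENSMUSG00000039384), had the lowest RNA of the 10 genes. Its footprints were at 11.9 and 6.37 RPKM in PBS, 12.6 and 13.9 at 6 h and 16.8 and 18.0 at 21 h. RNA values were 1.16 and 2.59 RPKM in PBS, 0.722 and 2.64 at 6 h and 2.92 and 2.40 at 21 h, which rested on 4 to 21 reads per library. Footprints were highest in the 2 libraries of 21 h, whereas the RNA groups overlapped. Footprints rose by 0.92 ± 0.25 at 21 h (SE on the log2 scale, limma, BH-adjusted p = 0.0188), and the RNA difference of 0.40 ± 0.46 was not detectable at this depth (limma, BH-adjusted p = 0.57). The footprint call was lost without PBS replicate 2 (0.51 on the log2 scale, limma adjusted p = 0.0923) and without replicate 2 at 21 h (0.88, adjusted p = 0.0693), and adjusted p ranged from 0.000855 to 0.0923 over the alternatives. Without PBS replicate 1 the RNA difference at 21 h turned to -0.04, and without PBS replicate 2 it was 0.84. The RNA difference against 6 h turned from 0.57 to -0.12 without replicate 1 at 6 h and was 1.25 without replicate 2. Against 6 h neither assay passed, at 0.36 ± 0.25 in footprints and 0.57 ± 0.46 in RNA (limma, BH-adjusted p = 0.311 and 0.447).

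**Figure D1:**
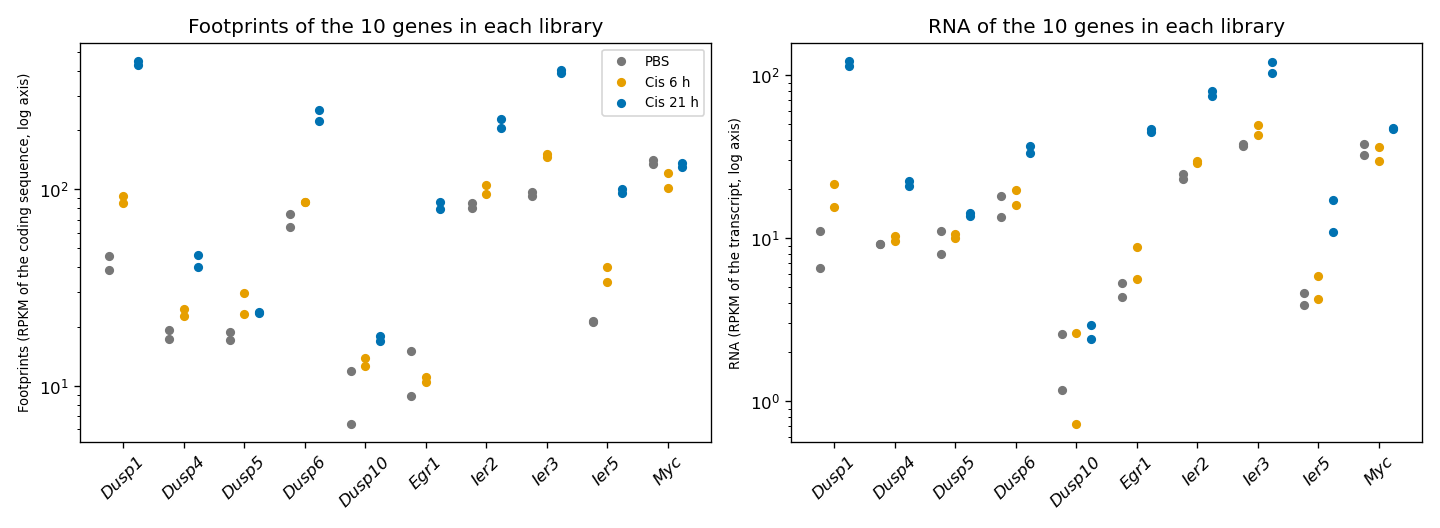
RPKM of the 10 genes in each of the 12 libraries on a log axis, for footprints per coding sequence (left) and RNA per transcript (right), where each point is 1 library and colours mark PBS, Cis 6 h and Cis 21 h. Dusp1 lies at 38.9 and 45.6 footprint RPKM in PBS and at 431 and 449 at 21 h, whereas Myc lies between 102 and 141 in all 6 footprint libraries.

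Egr1, a zinc finger transcription factor (ENSMUSG00000038418), had 8.89 and 15.0 footprint RPKM in PBS, 10.4 and 11.1 at 6 h and 85.7 and 79.5 at 21 h. In RNA it was at 4.35 and 5.30 RPKM in PBS, 5.62 and 8.79 at 6 h and 44.8 and 46.7 at 21 h. The footprints of PBS and 6 h overlapped, the RNA of 6 h lay just above PBS, and all 4 libraries of 21 h were far above the rest. At 21 h footprints rose by 2.75 ± 0.22 and RNA by 3.04 ± 0.21 on the log2 scale (SE, limma, BH-adjusted p = 6.97e-05 and 5.04e-05). Against 6 h the rises were 2.86 ± 0.22 and 2.47 ± 0.21 (limma, BH-adjusted p = 0.00012 and 0.000257). At 6 h the footprint difference from PBS was -0.12 ± 0.22 and turned to 0.26 without PBS replicate 2, and the RNA difference was 0.57 ± 0.21 (limma, BH-adjusted p = 0.811 and 0.364). Without PBS replicate 1 that footprint difference was -0.51, and the RNA one was 0.87 without replicate 1 at 6 h and 0.27 without replicate 2. The transcript listed for Egr1 had the longest leader of the 10, 1666 of 4484 bases, where the others had 35 to 531.

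Ier2, a nuclear protein (ENSMUSG00000053560), had 80.6 and 85.4 footprint RPKM in PBS, 95.2 and 105 at 6 h and 229 and 205 at 21 h. Ier2 RNA was at 22.9 and 24.6 RPKM in PBS, 29.1 and 29.6 at 6 h and 79.4 and 75.0 at 21 h. The 3 groups were separate in both assays, lowest in PBS and highest at 21 h. Footprints rose by 1.34 ± 0.10 and RNA by 1.60 ± 0.11 at 21 h (SE on the log2 scale, limma, BH-adjusted p = 4.74e-05 and 5.04e-05). Against 6 h the rises were 1.09 ± 0.10 and 1.23 ± 0.11 (limma, BH-adjusted p = 0.000248 and 0.000292).

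Ier3, a regulator of apoptosis and of ERK signalling (ENSMUSG00000003541), had 96.5 and 92.5 footprint RPKM in PBS, 151 and 146 at 6 h and 392 and 405 at 21 h. Ier3 RNA was at 37.7 and 36.6 RPKM in PBS, 42.8 and 49.4 at 6 h and 121 and 104 at 21 h. Here too the groups were separate in both assays. Footprints rose by 2.03 ± 0.08 and RNA by 1.5 ± 0.13 at 21 h (SE on the log2 scale, limma, BH-adjusted p = 3.39e-06 and 9.93e-05), and against 6 h by 1.40 ± 0.08 and 1.12 ± 0.13 (limma, BH-adjusted p = 3.46e-05 and 0.000718). At 6 h footprints rose by 0.64 ± 0.08 against PBS (limma, BH-adjusted p = 0.0152). That call was lost without PBS replicate 1 (limma adjusted p = 0.0574), PBS replicate 2 (0.0619), 6 h replicate 1 (0.141) or 6 h replicate 2 (0.142), and in limma without a trend (0.0867), with a range of 0.000393 to 0.142 over the alternatives.

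Ier5 (ENSMUSG00000056708) had 21.2 and 21.4 footprint RPKM in PBS, 40.4 and 33.7 at 6 h and 96.0 and 100.1 at 21 h. Its RNA was at 4.59 and 3.89 RPKM in PBS, 5.84 and 4.23 at 6 h and 10.9 and 17.1 at 21 h. Footprints separated all 3 groups, while RNA of PBS and 6 h overlapped and the 21 h libraries were above both. Footprints rose by 2.14 ± 0.12 and RNA by 1.5 ± 0.25 at 21 h (SE on the log2 scale, limma, BH-adjusted p = 1.22e-05 and 0.00272), and against 6 h by 1.38 ± 0.12 and 1.22 ± 0.25 (limma, BH-adjusted p = 0.000196 and 0.0111). The RNA call against 6 h was lost without replicate 2 at 6 h (limma adjusted p = 0.0612) or replicate 2 at 21 h (0.0814), with a range of 2.92e-06 to 0.0814 over the alternatives. At 6 h footprints rose by 0.76 ± 0.12 against PBS (limma, BH-adjusted p = 0.0289). That call was lost without PBS replicate 1 (limma adjusted p = 0.114), PBS replicate 2 (0.107), 6 h replicate 1 (0.166) or 6 h replicate 2 (0.104), and in limma without the filter on low values (0.0708) or without a trend (0.0902), with a range of 0.00136 to 0.166 over the alternatives.

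Myc, the transcription factor that drives growth and ribosome production (ENSMUSG00000022346), had 135 and 141 footprint RPKM in PBS, 121 and 102 at 6 h and 130 and 136 at 21 h. Myc RNA was at 32.3 and 38.0 RPKM in PBS, 29.9 and 36.1 at 6 h and 46.8 and 47.5 at 21 h. Its footprints were lowest in the 2 libraries of 6 h, and its RNA was highest in the 2 libraries of 21 h. At 21 h the footprint difference from PBS was -0.09 ± 0.11 and the RNA difference 0.34 ± 0.13, neither past the threshold (SE on the log2 scale, limma, BH-adjusted p = 0.522 and 0.0877). Without 1 library the footprint difference ranged from -0.143 to -0.0457. The RNA difference did pass with RPKM as deposited, without scaling (limma adjusted p = 0.0452), and with limma's voom (0.0245), in a range of 0.0245 to 0.388 over the alternatives. Against 6 h the differences were 0.23 ± 0.11 in footprints and 0.36 ± 0.13 in RNA (limma, BH-adjusted p = 0.134 and 0.0894), of which the RNA one passed without scaling (adjusted p = 0.0269) and with voom (0.0362), in a range of 0.0269 to 0.368. Without replicate 1 at 6 h these differences were 0.36 in footprints and 0.23 in RNA, and without replicate 2 the footprint one was 0.11.

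All 10 genes passed the filter on low values in both assays, so they were counted together. They were chosen with earlier results of these data known, so the counts describe these genes and do not test them as a set. At 21 h against PBS, 8 of 10 rose in footprints, where 18.9% of all 10383 transcripts tested were called higher and 20.2% lower. In RNA 7 of 10 rose, where 11.6% of 9443 were called higher and 12.2% lower. The median change of the 10 genes was 1.54 in footprints and 1.30 in RNA, beside 0.01 and 0.02 over all transcripts. At 21 h against 6 h, Dusp1, Dusp4, Dusp6, Egr1, Ier2, Ier3 and Ier5 rose in footprints and in RNA (7 of 10 in each), where 15% of transcripts were called higher and 15.7% lower in footprints and 7.53% and 8.21% in RNA. None of the 10 fell in any of these comparisons. The comparisons with PBS share the same PBS libraries.

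At 6 h against PBS, 3 of 10 rose in footprints (Dusp1, Ier3 and Ier5), where 1.05% of transcripts were called higher and 0.992% lower. The footprint changes of the 10 at 6 h ran from -0.32 (Myc) to 1.05 (Dusp1), with a median of 0.44 beside -0.01 over all transcripts. Without 1 library that of Myc ranged from -0.445 to -0.197. The count of 3 was 1 with either PBS footprint library left out, 0 with either 6 h footprint library left out, 0 in limma without a trend and 5 with voom (Dusp5 also higher, with limma adjusted p = 0.045 in a range of 0.045 to 0.419, and Myc lower, with 0.0297 in a range of 0.0297 to 0.514). In RNA, limma called 0 of 10 at 6 h, where 0% of transcripts were called higher and 0% lower. An unadjusted p under 0.05 was reached by 4 of the 10 and by 1086 of 9443 transcripts, and voom called 1 of the 10 (Dusp1) and 229 transcripts. The RNA changes at 6 h ran from -0.16 (Dusp10) to 1.12 (Dusp1), with a median of 0.26 beside -0.01 over all transcripts, and that of Dusp10 turned to 0.27 without PBS replicate 2 and to 0.52 without replicate 1 at 6 h.

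**Figure D2:**
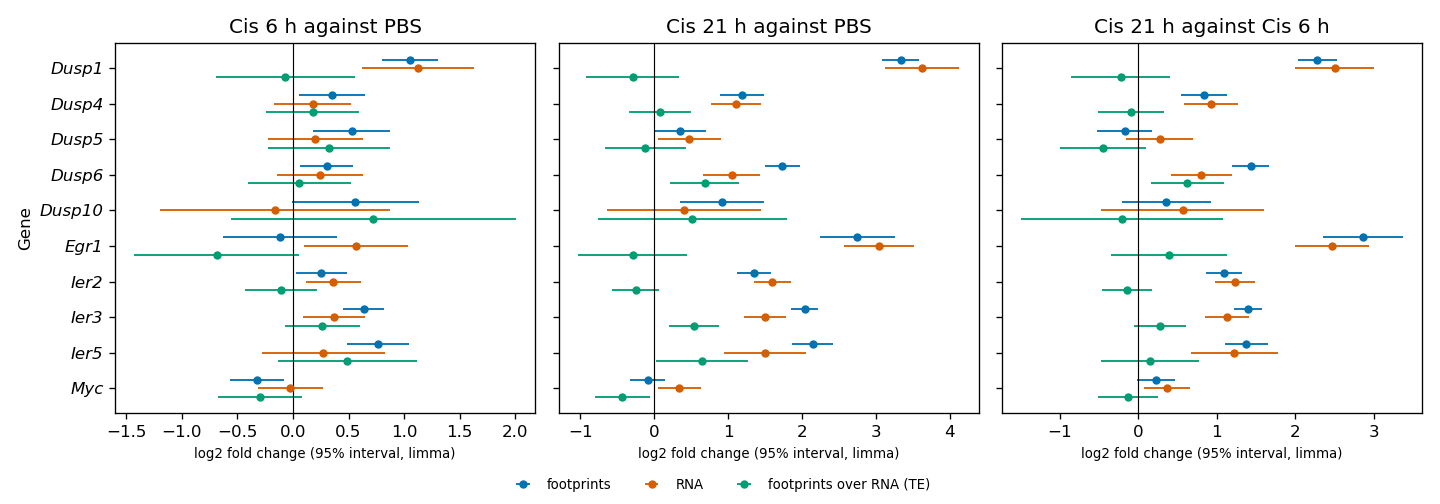
Log2 fold changes of the 10 genes from limma with 95% confidence intervals (bars) in footprints, RNA and translation efficiency, for Cis 6 h against PBS, Cis 21 h against PBS and Cis 21 h against Cis 6 h. At 21 h against PBS, Dusp1 lies at 3.33 in footprints and 3.62 in RNA, and Myc at -0.09 and 0.34.

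Translation efficiency (TE), the ratio of footprints to RNA, was tested in 1 limma model of all 12 libraries by its interaction term. Limma called 0 of 10 genes at 6 h against PBS (0% of 9295 transcripts higher and 0% lower), 0 at 21 h against PBS (0.258% higher and 0.151% lower) and 0 at 21 h against 6 h (0.592% higher and 0.42% lower). An unadjusted p under 0.05 was reached by 0, 4 and 1 of the 10 genes and by 710, 1183 and 1263 of all transcripts, and voom called 0 of 10 in each comparison. At 21 h against PBS the highest TE change was that of Dusp6, at 0.68 ± 0.21, and the lowest that of Myc, at -0.43 ± 0.17 (SE on the log2 scale, limma, BH-adjusted p = 0.22 and 0.333). The 4 genes with an unadjusted p under 0.05 were these 2, Ier3 and Ier5. The TE changes of Ier3 and Ier5 were 0.54 ± 0.15 and 0.64 ± 0.29 (limma, BH-adjusted p = 0.173 and 0.385). The ratio of Dusp6 RPKM, footprints over RNA of the same replicate number, was 4.10 and 4.73 in PBS, 5.40 and 4.34 at 6 h and 6.64 and 6.89 at 21 h. For Myc it was 4.18 and 3.70 in PBS, 4.06 and 2.82 at 6 h and 2.77 and 2.86 at 21 h. The 21 h ratios of Dusp6 were above all its others, and those of Myc were below its PBS ratios and overlapped with 6 h. At 6 h the TE changes ran from -0.69 (Egr1) to 0.72 (Dusp10), and at 21 h against 6 h from -0.45 (Dusp5) to 0.63 (Dusp6). These ends moved with single libraries. Without replicate 1 or 2 of the 6 h RNA the TE change of Dusp10 at 6 h was 0.0369 or 1.41, and without replicate 1 or 2 of the PBS footprints that of Egr1 was -1.08 or -0.31. That of Dusp5 against 6 h was -0.62 or -0.28 without replicate 1 or 2 of the 6 h footprints. The median TE change of the 10 was 0.12, -0.02 and -0.11 in the 3 comparisons, beside -0.01, -0.04 and -0.04 over all transcripts.

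The ratio of mean RPKM in PBS, footprints per coding length over RNA per transcript length, was highest for Ier5 (5.02), Dusp10 (4.87) and Dusp1 (4.80) and lowest for Dusp4 (1.98) and Dusp5 (1.89), beside a median of 3.44 over all transcripts. The place of Dusp10 rested on 8 and 21 RNA reads, and its ratio was 10.3 in replicate 1 and 2.46 in replicate 2. The ratios of Ier5 (4.62 and 5.49) and Dusp1 (5.96 and 4.11) overlapped, as did those of Dusp4 (2.08 and 1.88) and Dusp5 (1.55 and 2.37). Those of Dusp6 (4.10 and 4.73) overlapped with Ier5 and Dusp1, and those of Myc (4.18 and 3.70) with Dusp1. Those of Egr1 (2.05 and 2.83) overlapped with Dusp4 and Dusp5, so these places are not fixed. Egr1 had a ratio of 2.48 in PBS, 1.49 at 6 h and 1.80 at 21 h, where the medians of all transcripts were 3.44, 3.64 and 3.30. By footprint RPKM per coding length in PBS, the order of the 10 genes was Myc (mean 138), Ier3 (94.5), Ier2 (83.0), Dusp6 (69.3), Dusp1 (42.3), Ier5 (21.3), Dusp4 (18.2), Dusp5 (17.9), Egr1 (12.0) and Dusp10 (9.15). The library values of Dusp4 and Dusp5 overlapped in that order, as did those of Egr1 and Dusp10, and the other neighbours did not. At 21 h the order by footprint level was Dusp1 (440.1), Ier3 (399), Dusp6 (237), Ier2 (217), Myc (133), Ier5 (98.0), Egr1 (82.6), Dusp4 (43.2), Dusp5 (23.6) and Dusp10 (17.4), in which Dusp6 and Ier2 overlapped. By RNA RPKM per transcript length, Ier3 (37.1) and Myc (35.2) had the highest PBS means and Dusp10 (1.88) the lowest, and at 21 h Dusp1 (118) and Ier3 (112) were highest, with overlapping libraries in both leading pairs.

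The genes whose pattern was nearest to that of Dusp1, by root mean square distance over the 12 libraries of log2 values relative to PBS, were Atf3 (0.320), Fos (0.343) and Ptgs2 (0.419), where the median distance of 9285 candidates was 2.12. For Egr1 they were Ptgs2 (0.366), Cyp1a1 (0.385) and Jun (0.425), beside a median of 1.71. For Myc they were Setd2 (0.106), Ptpn21 (0.106) and Itprid2 (0.107), beside a median of 0.397. With a pseudocount of 0.1, 1 of the 3 genes nearest to Myc was the same, and with a pseudocount of 1, 2 of the 3 nearest to Egr1.

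The genes of the same families and pathways were counted as whole lists, whose medians at 21 h stand beside 0.01 in footprints and 0.02 in RNA over all transcripts. The counts at 21 h stand beside 18.9% of all transcripts called higher and 20.2% lower in footprints, and 11.6% and 12.2% in RNA. The lists too were chosen with earlier results of these data known, so their counts are a description and not a test. Of the other MAPK phosphatases, 3 of 4 listed passed the filter, and limma called 0 of them at 21 h in footprints or RNA, with 0 at an unadjusted p under 0.05 and 0 with voom in both assays. Their median change was 0.22 in footprints and 0.19 in RNA. Leaving out replicate 2 of the 21 h footprints gave 1 call, lower. Of the other Egr genes and the Nab corepressors, which bind Egr proteins, 3 were tested. In RNA limma called 1, Egr3, and in footprints 0, with 1 at an unadjusted p under 0.05 and 1 with voom, and their median change was 0.25 in RNA and 0.06 in footprints. Egr3 had 3 and 1 RNA reads in PBS and 27 and 22 at 21 h, a ratio of 14.9 with a 95% counting interval of 5.45 to 56.7 that covers counting error only. Egr3 RNA reached the filter only through 21 h, where its mean was 2.81 RPKM beside 0.198 in PBS and 0.585 at 6 h. It no longer reached the filter when either 21 h library was left out, which left 0 calls. A filter at a mean of 5 RPKM also left 0, and no filter gave 2. Egr3 footprints were also under the filter's level in PBS (mean 0.627 RPKM) and reached it through the treated groups (2.84 at 21 h). Their place in the footprint counts and median is thus no support for those. The footprint difference of Egr3, 1.46 ± 0.54, missed the threshold (limma, BH-adjusted p = 0.0607). It passed in limma without replicate 2 at 21 h (adjusted p = 0.0294), with a pseudocount of 1 (0.0491), with quantile normalization (0.0384) and with voom (0.02, in a range of 0.02 to 0.276 over the alternatives). Without replicate 2 of the 6 h footprints, or with no filter, 1 of this list was called in footprints too.

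Of the other immediate early genes, 17 of 20 tested rose in footprints at 21 h and 13 of 18 in RNA, and none fell. Their median change was 1.19 in footprints and 1.30 in RNA. Of those that rose, Arc footprints (mean 0.613 RPKM in PBS), Nr4a2 footprints (0.907) and Nr4a2 RNA (0.719) were under the filter's level in PBS. They reached it through the treated groups, so their place in the counts and medians of this list is no support for those. The largest rises were those of Atf3, a stress-induced transcription factor, at 3.65 ± 0.11 in footprints and 3.46 ± 0.21 in RNA, and of Btg2, an antiproliferative gene, at 3.00 ± 0.21 and 2.68 ± 0.28 (SE on the log2 scale, limma, BH-adjusted p = 1.11e-06, 2.95e-05, 3.1e-05 and 0.000322). At 6 h 3 of 20 rose in footprints, beside 1.05% of all transcripts. That count was 1 without PBS replicate 1 and 0 without either 6 h library or in limma without a trend. Of the AP-1 genes, which encode the Fos and Jun subunits, 6 of 7 rose in footprints at 21 h and 7 of 7 in RNA, with medians of 1.32 and 0.86, and without PBS replicate 1 the RNA count was 4. The RNA of Fosb had a mean of 0 RPKM in PBS, 0.457 at 6 h and 6.08 at 21 h. It reached the filter only through the group where it was high, so its place in the RNA count and median is no support for them. Fos rose by 3.23 ± 0.24 in footprints and 3.53 ± 0.25 in RNA (limma, BH-adjusted p = 4.27e-05 and 5.21e-05). Fosb rose by 2.21 ± 0.34 in footprints (limma, BH-adjusted p = 0.00141), and in RNA it had 0 reads in both PBS libraries and 48 and 53 at 21 h, at least 40.9-fold higher against a floor of 3 reads over the group. The RNA median of the AP-1 genes was also 0.86 with Fosb at that bound. At 6 h 2 of 7 rose in footprints, and that count was 0 without PBS replicate 1 or either 6 h library, 0 with no filter or no trend, and 1 without PBS replicate 2.

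Of the ERK feedback and output genes, 3 rose and 5 fell among 11 tested in footprints at 21 h, and 3 rose and 2 fell among 10 in RNA, with medians of 0.04 and -0.09. With either PBS library left out, the sum of both directions was 5 in footprints and 3 in RNA, and in limma without a trend it was 3 in RNA. Spry4, an inhibitor of receptor tyrosine kinase signalling, rose by 1.77 ± 0.22 in footprints (limma, BH-adjusted p = 0.000495) and was 0.79 ± 0.28 higher in RNA (limma adjusted p = 0.0706, and 0.00983 with voom, in a range of 0.00983 to 0.334). Spry2, of the same family, rose by 1.07 ± 0.16 in RNA (limma, BH-adjusted p = 0.0018), and its footprint difference was 0.44 ± 0.20 (0.115), which was 0.23 without PBS replicate 2. Spred2, another inhibitor of ERK signalling, fell by 1.04 in footprints and fell by 0.95 in RNA on the log2 scale (SE 0.16 and 0.17, limma, BH-adjusted p = 0.00148 and 0.00426). Epha4, an ephrin receptor, fell by 1.0 in footprints (SE 0.24, limma, BH-adjusted p = 0.0109), a call that was lost without PBS replicate 1 (adjusted p = 0.0675) or PBS replicate 2 (0.0608), in a range of 0.000681 to 0.0675 over the alternatives. Its RNA did not pass the filter on low values.

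Of the MAP kinases and MAP2 kinases, the substrates of these phosphatases and the kinases that activate those, 1 rose and 3 fell among 15 tested in each assay at 21 h, with medians of -0.04 in footprints and -0.14 in RNA. Over all transcripts 18.9% were called higher and 20.2% lower in footprints and 11.6% and 12.2% in RNA. The RNA count of 4 was 2 without PBS replicate 1, 1 without PBS replicate 2 and 2 without replicate 1 at 21 h. Map2k6, a kinase of p38, fell by 0.91 in footprints and fell by 0.90 in RNA on the log2 scale (SE 0.14 in each, limma, BH-adjusted p = 0.00139 and 0.00191). Map2k5, the kinase of ERK5, fell by 1.92 in RNA (SE 0.43, limma, BH-adjusted p = 0.0113), which was lost without PBS replicate 1 (adjusted p = 0.0561), PBS replicate 2 (0.0743) or replicate 1 at 21 h (0.06), in a range of 0.00103 to 0.0743 over the alternatives. Its RNA had a mean of 3.28 RPKM in PBS and 0.611 at 21 h, with at most 5 reads in a 21 h library. That was under the filter's level at 21 h, which Map2k5 RNA reached through groups where it was higher. Its place in the RNA count and median of this list is thus no support for those. The footprint difference of Map2k5 was -0.98 ± 0.37 (limma, BH-adjusted p = 0.0672). It passed in limma without replicate 1 (adjusted p = 0.0184) or replicate 2 (0.0148) at 6 h, with only the groups compared (0.0157) and with voom (0.0206), in a range of 0.0148 to 0.232. Map2k3, another kinase of p38, rose by 0.75 ± 0.18 in RNA (limma, BH-adjusted p = 0.0143), which was lost without PBS replicate 2 (adjusted p = 0.105) or replicate 1 at 21 h (0.0805) and in limma without a trend (0.0553), in a range of 0.000144 to 0.105. The footprint difference of Map2k3, 0.28 ± 0.12 (limma, BH-adjusted p = 0.0975), passed without replicate 1 at 21 h (0.0463, in a range of 0.0463 to 0.367) and was 0.17 without replicate 2. Map2k7, a kinase of JNK, rose by 0.47 ± 0.15 in footprints (limma, BH-adjusted p = 0.0359). That call was lost without PBS replicate 1 (limma adjusted p = 0.0551), PBS replicate 2 (0.186), replicate 1 at 21 h (0.0993) or replicate 2 at 21 h (0.0752), and in limma with no filter (0.0551) or no trend (0.0508), in a range of 0.019 to 0.186. The RNA difference of Map2k7 was -0.01 ± 0.26 (limma, BH-adjusted p = 0.986) and was above 0 without PBS replicate 1 (0.05), without replicate 2 at 21 h (0.30), without scaling (0.07) and with voom (0.01).

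Of SRF, the transcription factor that binds CArG boxes, and its cofactors, 0 rose and 3 fell among 6 tested in footprints at 21 h, and 0 rose and 1 fell in RNA, with medians of -0.38 and -0.46. The footprint count was 0 without PBS replicate 1 and 1 without PBS replicate 2 or replicate 2 at 21 h, and the RNA count was 2 without replicate 2 at 21 h or with voom. Elk3, an ETS factor that binds with SRF, fell by 0.89 in footprints and fell by 1.38 in RNA on the log2 scale (SE 0.21 in each, limma, BH-adjusted p = 0.00925 and 0.00187), of which the footprint call was lost without PBS replicate 1 (adjusted p = 0.0673, in a range of 0.000132 to 0.0673). Mrtfa, an actin-regulated cofactor of SRF, fell by 1.05 in footprints (SE 0.27, limma, BH-adjusted p = 0.0146), which was lost without PBS replicate 1 (adjusted p = 0.0611), PBS replicate 2 (0.0905) or replicate 2 at 21 h (0.0681), in a range of 0.00157 to 0.0905. Its RNA difference of -1.29 ± 0.48 (limma, BH-adjusted p = 0.0813) passed without replicate 2 at 21 h (-1.96, adjusted p = 0.0289) and with voom (0.0029, in a range of 0.0029 to 0.401). Without replicate 1 at 21 h it was -0.60. Mrtfa RNA had a mean of 1.93 RPKM in PBS and 0.628 at 21 h, which is under the filter's level. It reached the filter through groups where it was higher, so its place in the RNA median of this list is no support for that median.

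Of the MYC network, 2 rose and 1 fell among 10 tested in footprints, and 1 rose and 1 fell among 9 in RNA, with medians of 0.21 and 0.32. The footprint count of 3 was 1 without PBS replicate 2. The RNA count of 2 was 1 without PBS replicate 1, PBS replicate 2 or replicate 1 at 21 h and 0 without replicate 2 at 21 h, with no filter or with no trend. Mxi1, a MAX partner that opposes MYC, fell by 1.07 in footprints and fell by 0.64 in RNA (SE 0.16 and 0.17, limma, BH-adjusted p = 0.00106 and 0.0268). Its RNA call was lost without PBS replicate 1 (limma adjusted p = 0.192) or replicate 2 at 21 h (0.152), and in limma with no filter (0.058) or no trend (0.0834), in a range of 0.00113 to 0.192. Max, the partner of MYC, rose by 0.47 ± 0.12 in footprints (limma, BH-adjusted p = 0.0132), which was lost without PBS replicate 2 (adjusted p = 0.0814) or replicate 2 at 21 h (0.0652), in a range of 0.0104 to 0.0814, and its RNA difference was 0.32 ± 0.19 (0.249), which was 0.21 without PBS replicate 1 or replicate 2 at 21 h. Mxd3, another MAX partner, rose by 0.61 ± 0.17 in footprints and 1.40 ± 0.36 in RNA (limma, BH-adjusted p = 0.0185 and 0.0212). The limma call in footprints was lost without PBS replicate 1 (adjusted p = 0.058), PBS replicate 2 (0.0964) or replicate 1 at 21 h (0.086), in a range of 0.0156 to 0.0964. The RNA call was lost in limma without PBS replicate 2 (adjusted p = 0.14), replicate 1 at 21 h (0.0868) or replicate 2 at 21 h (0.0759), and with no filter (0.064) or no trend (0.0522), in a range of 0.0127 to 0.14.

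At 6 h, limma called 5 of 75 list genes higher and 0 lower in footprints, those of the immediate early and AP-1 lists, and 0 of 71 in RNA. Over all transcripts 1.05% were called higher and 0.992% lower in footprints, and 0% in either direction in RNA. In footprints 25 of 75 reached an unadjusted p under 0.05, and voom called 9 higher and 3 lower. With either 21 h footprint library left out, with only the groups compared or with a mean of at least 5 RPKM, 1 ERK feedback gene was called lower at 6 h, and with the last of these 1 kinase higher. In RNA 15 of 71 reached an unadjusted p under 0.05, and voom called 2, both lower.

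The spans of the 10 genes, from start to end of the gene in RefSeq, ran from 1.20 kb (Ier3) to 41.3 kb (Dusp10). Their median was 4.00 kb, where the median of all transcripts tested in RNA was 22.4 kb. Each of the 10 but Dusp10 lay below that median. Among transcripts no longer than Dusp10, a limit chosen after the values were seen, the median RNA change at 21 h was 0.14, beside -0.33 among longer ones, and the median footprint change was 0.16, beside -0.49. Of those up to that length, 15.6% were called higher and 5.47% lower in RNA at 21 h, and 25.7% higher and 8.90% lower in footprints. The shares over all transcripts were 11.6% and 12.2% in RNA and 18.9% and 20.2% in footprints. The part of gene length in the rises of the 10 genes was not tested.

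RefSeq promoter windows (GRCm38.p6, 250 bases before to 50 after the start) were held for 6 of the 10 genes, Dusp1, Dusp5, Dusp6, Dusp10, Ier3 and Ier5. Both strands of 32851 windows were searched for 4 motifs. The CArG box, bound by SRF, lay in 1.63% of all windows and in 1 of 6, that of Dusp5, with 2 matches 82 and 72 bases before the start. TGACG, the core of the cAMP response element, lay in 20.8% of all windows and in 2 of 6, with 3 matches for Dusp1 at 191, 143 and 140 bases before the start, of which the last pair overlap, and 1 for Dusp5. TATAAA lay in 13.6% of all windows and TGANTCA, bound by AP-1, in 7.81%, and in 0 of 6 each. A match describes these letters only. The 250 bases before the start are shown for the 2 genes with a match, 5′ to 3′ on the strand of the gene, with TGACG in capitals for Dusp1 (chr17:26508473-26508722, minus strand) and the CArG boxes in capitals for Dusp5 (chr19:53528895-53529144, plus strand).
Dusp1: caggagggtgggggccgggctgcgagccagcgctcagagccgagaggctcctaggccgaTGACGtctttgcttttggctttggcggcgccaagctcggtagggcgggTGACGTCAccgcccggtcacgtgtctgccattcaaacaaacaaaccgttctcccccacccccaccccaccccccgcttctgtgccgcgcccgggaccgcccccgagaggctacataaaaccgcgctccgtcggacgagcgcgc
Dusp5: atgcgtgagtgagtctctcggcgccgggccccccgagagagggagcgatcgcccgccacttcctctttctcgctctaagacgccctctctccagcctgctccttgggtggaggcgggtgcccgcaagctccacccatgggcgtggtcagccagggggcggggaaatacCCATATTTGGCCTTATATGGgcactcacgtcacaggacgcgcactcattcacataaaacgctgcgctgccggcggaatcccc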

How the data were processed

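RPKM values as deposited by the authors were used. The footprint tables count reads over 1 coding sequence per gene and the RNA tables over its transcript, and the submitters' processing notes name cutadapt, STAR and the GRCm39 build, without versions. Cells were lysed with cycloheximide, and footprints were made with RNase I. A transcript absent from a library's table counted as 0 there. Whole reads could be recovered from all values (tolerance 0.01), which gave the depth: 3375480 to 5204127 reads per footprint library and 1985344 to 2901692 per RNA library. The lowest count behind a value of the 10 genes was 4 reads (Dusp10 RNA), and the others had at least 32.

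Footprint and RNA values were each scaled by factors from medians of ratios, and transcripts with a mean of at least 1 RPKM were tested by limma (3.58.1, under R 4.3.3), moderated with a trend, on log2(scaled RPKM + 0.5), with 3 groups in 1 model, two-sided and with Benjamini-Hochberg adjustment over all transcripts tested. Fold changes are therefore on the log2(value + pseudocount) scale and understate the change of low genes. An exact permutation test of 2 against 2 libraries cannot give a p below 0.333. Tables and figures were made with Python 3.11.15, pandas 2.3.3, numpy 2.4.6 and matplotlib 3.10.9, and the fits were tested on simulated data. Alternatives were pseudocounts of 0.1 and 1, no filter, a mean of at least 5 RPKM, no scaling, quantile normalization, no trend, only the groups compared, a replicate block, voom on recovered reads, RNA without its 3 most abundant transcripts, and each library left out in turn. A lone sample left in a group is assumed to vary like the other groups. Intervals and floors cover counting error only.

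The 10 genes and the gene lists were chosen with earlier results of these data known. All 10 were named in each comparison: with fold change, SE and adjusted p at 21 h against PBS and against 6 h, and otherwise by their range, their extremes and those past the threshold. Of each list, the 2 largest rises and falls among genes past the threshold in either assay at 21 h were named, and for Dusp1, Egr1 and Myc the 3 nearest transcripts. The alternatives for list genes and list counts were chosen after seeing the data. Gene spans and promoters came from RefSeq tables of GRCm38.p6, used for lengths and letters, while the deposited values are on GRCm39.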

Additional observations from a re-analysis of the deposited data

Results flagged for a closer look

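For 7 of the 10 genes the change at 21 h differed from the change at 6 h, by limma's test of 21 h against 6 h, in footprints and in RNA. The difference on the log2 scale, 21 h minus 6 h, was 2.28 in footprints and 2.50 in RNA for Dusp1, 2.86 and 2.47 for Egr1, and 1.43 and 0.80 for Dusp6. For Dusp4 it was 0.83 and 0.93, for Ier2 1.09 and 1.23, for Ier3 1.40 and 1.12, and for Ier5 1.38 and 1.22. Over all transcripts tested the median of this difference was 0.00 in footprints and 0.01 in RNA.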

How the results depend on the processing

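Of 1704 alternative values for the 90 fold changes of the 10 genes, 1648 kept direction and side of the threshold, 23 lost a call, 8 gained one and 25 changed sign; 26 of the 32 called changes held under every alternative run. Of 562 for list genes, 513 kept both, 33 lost a call, 12 gained one and 4 changed sign. With a mean of at least 5 RPKM, Dusp10 gave no RNA or TE value. The cause was not tested for any change listed here.

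Of the 10 genes, 3 were called in footprints at 6 h; without a trend this was 0, with voom 5, and without 1 library 0 to 3. In RNA at 6 h voom called 1. Without scaling, the TE change of Dusp1 at 6 h was 0.0136 and the RNA change of Map2k7 at 21 h 0.0712, which was 0.00736 with voom.

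Without 1 library, changes that crossed 0 ranged as follows. At 6 h Egr1 footprints ranged from -0.505 to 0.26, and RNA from -0.0417 to 0.435 (Dusp5), -0.851 to 0.524 (Dusp10) and -0.155 to 0.107 (Myc). Dusp10 RNA ranged from -0.0352 to 0.836 at 21 h and from -0.122 to 1.25 against 6 h, and Map2k7 RNA at 21 h from -0.313 to 0.299. TE at 6 h ranged from -0.408 to 0.282 (Dusp1) and -0.158 to 0.281 (Dusp6). At 21 h TE ranged from -0.633 to 0.0594 (Dusp1), -0.00861 to 0.184 (Dusp4), -0.354 to 0.12 (Dusp5) and -0.679 to 0.0839 (Egr1). Against 6 h it ranged from -0.453 to 0.00996 (Dusp1), -0.894 to 0.48 (Dusp10), -0.121 to 0.436 (Ier5) and -0.26 to 0.000754 (Myc).

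Replicate numbers did not pair the samples (r of replicate differences from -0.05 to 0.07). With the replicate block, the footprint call of Ier5 at 6 h was lost (0.764 on the log2 scale, limma adjusted p = 0.0568), as was that of Map2k7 at 21 h (adjusted p = 0.0542) and both AP-1 calls in footprints at 6 h, and 37 transcripts in place of 212 were called in footprints at 6 h, 5 in place of 38 in TE at 21 h and 43 in place of 94 in TE at 21 h against 6 h. Footprint over RNA ratios with the block gave 0 in both TE comparisons at 21 h.

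Counts over all transcripts that differed by over 1.5 times were these. Footprints at 6 h (212) gave 17 with no filter, 344 with at least 5 RPKM, 0 without a trend, 442 with only the groups compared, 1276 with voom and 0 to 398 without 1 library, and against 6 h (3189) 1601 to 2985 without 1 library. RNA at 6 h (0) gave 1 with quantile normalization, 229 with voom and 0 to 1 without 1 library, RNA at 21 h (2245) 1058 to 2309 without 1 library, and RNA against 6 h (1486) 916 with no filter, 790 without a trend and 684 to 1197 without 1 library. TE at 6 h (0) gave 1 with a pseudocount of 0.1, with the block or without the 3 abundant RNAs and 14 with voom. TE at 21 h (38) gave 8 with no filter, 67 with at least 5 RPKM, 0 without a trend, 3 with only the groups compared, 151 with voom and 2 to 43 without 1 library. TE against 6 h (94) gave 54 with no filter, 154 without scaling, 4 without a trend, 49 with only the groups compared, 171 with voom and 16 to 83 without 1 library.

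Without scaling, the median of all transcripts at 21 h against 6 h was 0.15 in RNA (0.01 scaled) and -0.16 in TE (-0.04 scaled). Calls higher and lower went from 711 and 775 to 1234 and 514 in RNA against 6 h, from 1093 and 1152 to 1367 and 966 in RNA at 21 h, from 24 and 14 to 18 and 16 in TE at 21 h, and from 55 and 39 to 42 and 112 in TE against 6 h.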
